A study of Triticum aestivum with 32 samples.

Results

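The 100 most abundant gene models in flag leaves of Stettler, a cultivar of bread wheat, were followed over 8 treatments. Gene models of high confidence were ranked by their mean abundance over all 32 libraries and the first 100 were taken, of 107887 ranked, with 5 gene models of homoeologous group 4 left out of the ranking by the rule that chose the members. Abundance is in TPM, the reads of a transcript divided by its length and scaled so that all transcripts of a library sum to 1000000. The rule used the mean over all libraries and no difference between treatments, so the mean levels and ranks below are a description with no test.

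Plants were treated from Feekes stage 8, with 8 pots per treatment, and 4 libraries stand for each group. The combined groups were salt plus heat plus drought, salt plus heat, salt plus drought, and heat plus drought, the single stresses were salt, heat and drought, and the last group was the untreated control. Salt pots received sodium chloride of 20 mM, then 40 mM and finally 80 mM. For heat, pots were kept in a greenhouse of their own, warmed to 30 °C for part of the day, so heat and greenhouse cannot be told apart. For drought, soil water was held at 40% of field capacity. The control had water at 100% of field capacity, days of 24 °C and nights of 18 °C, and shared its greenhouse with the drought, salt, and salt plus drought pots. According to the series text, replicates are independent biological ones. The labelled tissue could not be checked against marker genes, since the files pair the identifiers with no gene names and none of them matched the reference table.

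Bread wheat is hexaploid and carries related chromosome sets, the A, B and D subgenomes, in which most genes have a counterpart on the same numbered chromosome of each set. The flag leaf is the uppermost leaf of the stem and feeds the grain. In green leaf tissue, a few highly abundant transcripts make up a large part of the messenger RNA, and TPM measures each of them relative to all others. A lower TPM in bulk leaf RNA can mean less RNA per cell or fewer cells of a type, and these cannot be told apart here.

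Several libraries stood apart before any comparison. Control replicate 3, heat replicate 1 and heat replicate 3 held fewer gene models at 1 TPM or more, 44106, 44423 and 47617, than the other heat and control libraries, which held between 50218 and 52134, while the drought libraries held between 45960 and 49003. Gene models of low confidence took 21.6% of the TPM in salt replicate 3 and 7.81% to 9.90% in every other library. A further library, salt plus heat replicate 3, held the lowest value of 73 of the 100 gene models, and heat replicate 1 held the highest value of 45. Most counts below are therefore also given without control replicate 3, heat replicates 1 and 3 and salt replicate 3, and again with salt plus heat replicate 3 left out too. Both sets were chosen after the data were seen, and both keep the drought libraries, although these held few gene models too. Control replicate 3 and heat replicates 1 and 3, left out in both, held 31.9%, 34.3% and 30.8% of their TPM in the members. Leaving them out therefore bears directly on the salt and drought counts.

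The mean level of the 100 gene models ran from 1126 to 6109 TPM, with a median of 1922 TPM, and 46 of them averaged 2000 TPM or more. First came TraesCS4D02G135000 with 6109 TPM. Next were TraesCS5D02G169900 with 5833 TPM and TraesCS5D02G169600 with 4857 TPM, which lie close to each other on chromosome 5D by their identifier numbers. They were followed by TraesCS5D02G329200 (4619 TPM), TraesCS5A02G165700 (4369 TPM), TraesCS3D02G223300 (4272 TPM), TraesCS3A02G230000 (4166 TPM), TraesCS2D02G248400 (3706 TPM), TraesCS5A02G165400 (3474 TPM) and TraesCS2A02G187200 (3462 TPM). The lower end of the list is not marked by a step in level. TraesCS5B02G466700, TraesCS2D02G322900 and TraesCS2D02G294300, ranked 98 to 100, averaged 1141, 1134 and 1126 TPM, and the next outside, TraesCS2A02G296400, TraesCS2A02G344600 and TraesCS2B02G342200, averaged 1115, 1100 and 1098 TPM.

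The members were spread unevenly over the chromosomes. Homoeologous group 2 held 35 of them and group 5 held 23, while groups 1, 3, 4, 6 and 7 held between 6 and 10 each, and 2 were on no placed chromosome. By subgenome there were 34 gene models on A, 29 on B and 35 on D. Chromosome 2D held the most, with 13 members, and 2A and 2B held 11 each. These counts were not set against the number of ranked gene models on each chromosome. The rule also left out 5 gene models of group 4, of which 2 would have been in the first 100.

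Together the 100 gene models held 22.3% ± 5.02 of the TPM of a library (SD, n = 32, range 12.9% to 34.3%). The D subgenome members held 8.45% ± 2.03, the A members 7.62% ± 1.69 and the B members 5.87% ± 1.34 (SD, n = 32 each). Their summed share was 20.0% ± 2.72 with salt plus heat plus drought, 18.5% ± 4.90 with salt plus heat, 20.3% ± 2.77 with salt plus drought, 22.5% ± 1.52 with heat plus drought, 19.04% ± 2.39 with salt, 26.3% ± 7.41 with heat, 28.4% ± 2.91 with drought and 23.5% ± 5.63 in control (SD, n = 4 each). Drought libraries, at 25.02% to 31.7%, lay above all libraries with salt, which reached 23.1% at most. Heat replicates 1 and 3 and control replicate 3 lay far above the others of their groups, and control replicate 3 alone stood at 31.9% where the other controls held 20.2% to 21.7%.

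**Figure D1:**
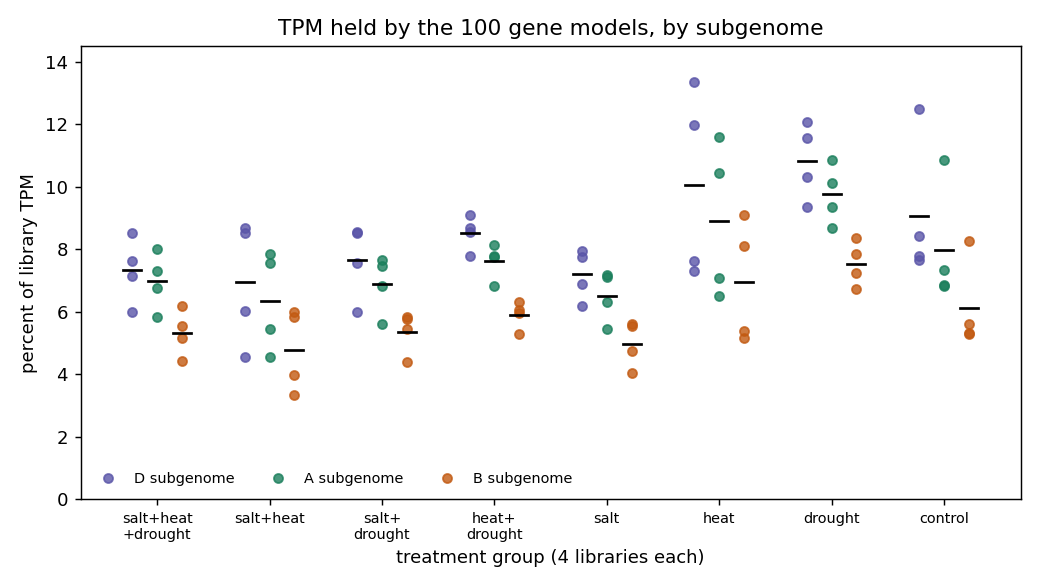
Percent of each library's TPM held by the members of the D, A and B subgenomes, by treatment; each point is 1 library and each bar the mean of 4. In every group the D members hold the most and the B members the least on average, and the points of the 3 subgenomes move up and down together.

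The split of this summed share between subgenomes varied little. Of the TPM held by the members, the D part was 37.7% ± 0.862, the A part 34.2% ± 0.463 and the B part 26.3% ± 0.421 (SD, n = 32 each). Over single libraries the D part ran from 35.4% to 39.1%, the A part from 33.4% to 35.5% and the B part from 25.01% to 26.9%. The lowest D part, on average, was 36.5% ± 0.314 with salt plus heat plus drought, against 38.5% ± 0.550 in control (SD, n = 4 each), and the 2 ranges, 36.1% to 36.8% and 37.9% to 39.1%, did not overlap. All other high confidence gene models were split more evenly, with 34.1% ± 0.489 on D, 32.6% ± 0.599 on A and 32.04% ± 0.533 on B (SD, n = 32 each). The list of members was chosen on level, so its split is a description of the list. RSEM, the program behind the values, divides reads among near-identical copies, and the split between homoeologous copies is uncertain to that extent.

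Within each treatment, most members were again among the most abundant. Ranked within a group by its own mean, between 90 (salt) and 96 (heat plus drought) of the 100 were among that group's first 100. The order at the top differed between groups. TraesCS4D02G135000 came first with salt plus heat plus drought (4953 TPM), salt plus heat (5396 TPM), salt plus drought (6089 TPM) and heat plus drought (6250 TPM), whereas TraesCS5D02G169900 came first with heat (8544 TPM), drought (7988 TPM) and in control (7304 TPM). In the salt group the first place went to a gene model outside the list, TraesCS7D02G256000 of rank 108, chosen for mention after its values were seen. It held 25827 TPM in salt replicate 3 and at most 253 TPM in the other 3 salt libraries.

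The group of highest mean was drought for 63 members, heat for 20 and the triple combination for 8. The group of lowest mean was salt plus heat for 42 members, salt for 32 and the triple combination for 9. These means include salt plus heat replicate 3, with the lowest library value of 73 members, and heat replicate 1, with the highest of 45. The ratio of the highest to the lowest group mean ran from 1.23 to 5.50 over the members, with a median of 1.74, and was below 2 for 75 of them. It was largest for TraesCS3B02G451800 (5.50), TraesCS2B02G079200 (3.06) and TraesCS2A02G204800 (2.57), and smallest for TraesCS5D02G432900 (1.23), TraesCS6D02G340700 (1.26) and TraesCS5A02G424400 (1.26). Spread within a group differed as much between members. The median within-group SD of log2(TPM + 1) was 0.97 for both TraesCS3B02G451800 and TraesCS2B02G079200 and 0.81 for TraesCS2D02G065200, but 0.10 for TraesCS5B02G426500 and 0.12 for TraesCS4D02G135000 and TraesCS6A02G358100.

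**Figure D2:**
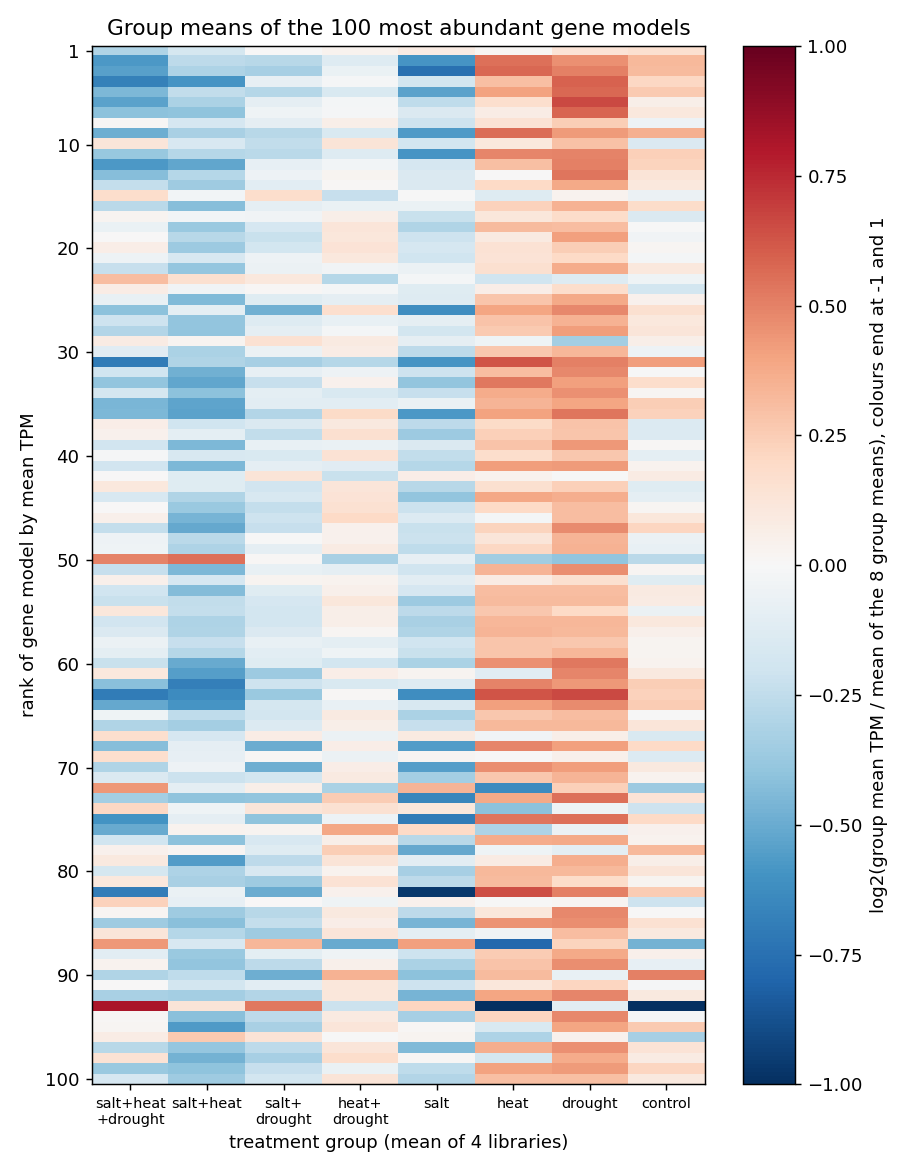
Mean TPM of each gene model in each treatment (4 libraries) over the mean of its 8 group means, on a log2 scale, with gene models down the page by rank. Most rows are red in the drought and heat columns and blue in the salt and salt plus heat columns, and a few rows, such as ranks 87 and 93, are red with the triple combination and blue with heat and in control.

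Salt gave the most calls. Averaged over 4 backgrounds, the combinations of heat and drought (16 libraries with salt against 16 without), 72 of the 100 gene models fell and 6 rose at an adjusted p under 0.05 in limma, where 3.95% of all 60684 gene models tested fell and 29.0% rose. All 100 members passed the filter of 1 TPM in 4 libraries. The median change of the members was -0.40 on the log2(TPM + 1) scale, while that of all gene models tested was 0.17. Gene models of low confidence took 10.1% ± 3.07 of the TPM with salt and 8.88% ± 0.563 without it (SD, n = 16 each), or 9.36% ± 0.392 with salt when salt replicate 3 is left out. Gene models at 1 TPM or more numbered 51417 ± 1763 with salt, or 51748 ± 1205 (SD, n = 15) without salt replicate 3, and 49011 ± 2688 in libraries without salt (SD, n = 16 each unless given). The part of either in the change was not tested.

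The fall was spread over subgenomes and over ranks. It took in 25 of the 34 A members, 22 of the 29 B members, 25 of the 35 D members and neither of the unplaced ones, and the median change was -0.39 on A, -0.42 on B and -0.39 on D. Of the first 10 gene models, 9 fell, and the exception, TraesCS2D02G248400, changed by -0.22 (SE 0.09, limma adjusted p = 0.05305). In every one of the 4 backgrounds 79 members were lower on average with salt, as were 4.347% of all gene models tested, and 7 members were higher in all 4, as were 34.512% of all.

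The size of these counts rests on the normalisation and on a few libraries. Quantile normalisation forces 1 common distribution on the libraries. The members fill most of the highest ranks in each group, so it leaves them little room to fall or rise together. With it 16 members fell and 12 rose, where 9.52% of all gene models fell and 10.2% rose. Of the 78 called members 69 kept their sign. Median-of-ratios scaling gave 79 falls and 2 rises, where 10.5% fell and 9.24% rose. Without the 4 libraries that stood apart, 22 members fell and 3 rose, where 3.82% fell and 17.9% rose, and without salt plus heat replicate 3 as well, 21 fell and 3 rose, where 3.76% fell and 16.3% rose. All 78 kept their sign in both of these.

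**Figure D3:**
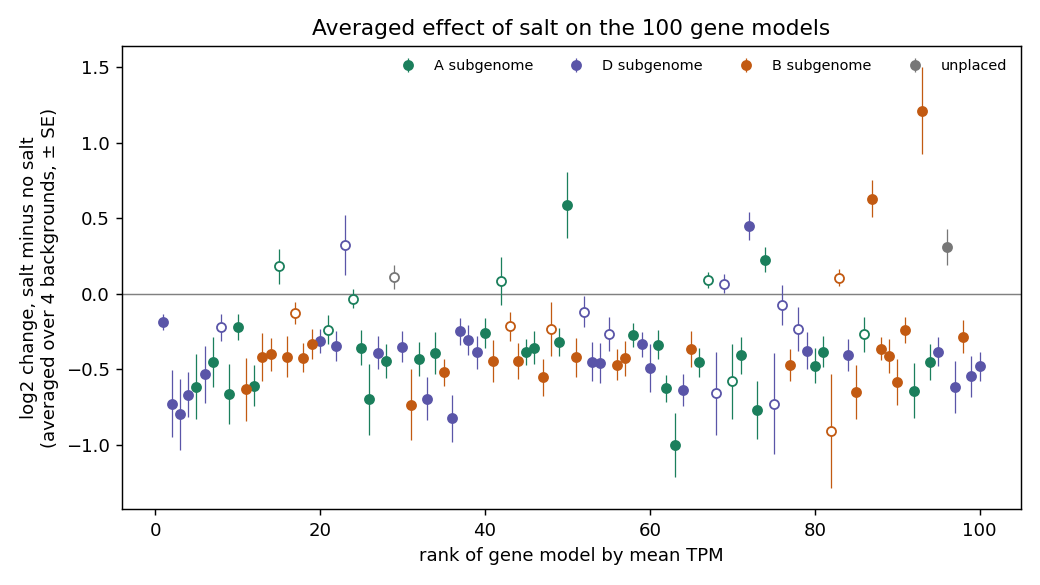
Change with salt on the log2(TPM + 1) scale, averaged over 4 backgrounds, for each member by rank; bars are the SE from limma, filled points passed an adjusted p of 0.05 and open points did not, and colours mark the subgenome. Of the filled points, 72 lie below 0 and 6 above it.

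Among the members called, the largest fall was that of TraesCS2A02G204800. With salt its lowest, median and highest library stood at 315, 1239 and 1823 TPM, against 1176, 1929 and 4410 TPM without salt. The ranges overlapped, but the median with salt was near the lowest library without it. Its mean was 1189 ± 436 TPM with salt and 2353 ± 962 TPM without (SD, n = 16 each), a change of -0.999 (SE 0.21, limma adjusted p = 0.001566). The gene model was lower with salt in all 4 backgrounds, and its fall was called under all 42 alternatives tried. Most of the 42 left out 1 library, once for each of the 32. The alternatives and the backgrounds use the same libraries as the call, so they are no separate evidence.

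TraesCS7D02G276300 was the next of the called falls, with 799, 1677 and 2461 TPM (lowest, median, highest) with salt and 1724, 2717 and 4224 TPM without. It changed by -0.82 (SE 0.16, limma adjusted p = 0.000667) and was likewise called under all 42 alternatives. The member of near identifier number on chromosome 7A, TraesCS7A02G276400, changed by -0.77 (SE 0.19, adjusted p = 0.004877 in limma). Its call was lost in both sets with doubted libraries left out.

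A pair of group 5 members completed the 5 largest called falls. TraesCS5D02G169600 stood at 1174, 3296 and 6041 TPM with salt, against 2817, 5151 and 12891 TPM without, a change of -0.80 (SE 0.23, limma adjusted p = 0.01279). TraesCS5B02G162800 changed by -0.73 (SE 0.24, limma adjusted p = 0.01994). Both calls were lost with quantile normalisation and without the libraries that stood apart, and that of TraesCS5B02G162800 also with no filter. TraesCS2B02G079200 did not pass (-0.91, SE 0.38, limma adjusted p = 0.06377), although by size its change was second to that of TraesCS2A02G204800 alone. Nor did TraesCS2D02G065200 (-0.73, SE 0.33, limma adjusted p = 0.091), and both had a wide spread within groups.

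Not all falls were of noisy gene models. TraesCS1A02G403300, with a within-group SD of 0.17, had the smallest adjusted p of the members. Its libraries held 1188, 1189, 1281 and 1765 TPM with salt plus heat plus drought, 1095, 1175, 977 and 1271 TPM with salt plus heat, 1726, 1383, 1443 and 1745 TPM with salt plus drought, and 2178, 1779, 1041 and 1633 TPM with salt. Those without salt held 1167, 1574, 2074 and 1701 TPM with heat plus drought, 2627, 2587, 2826 and 2161 TPM with heat, 2323, 2373, 2796 and 2327 TPM with drought, and 1953, 2065, 2317 and 2269 TPM in control. Salt plus heat was the lowest group, below all heat, drought and control libraries. The averaged change with salt was -0.62 (SE 0.09, limma adjusted p = 4.3e-05). TraesCS1D02G411300 on chromosome 1D and TraesCS1B02G432700 on 1B changed by -0.64 (SE 0.10, limma adjusted p = 0.000167) and by -0.52 (SE 0.09, limma adjusted p = 0.000285).

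TraesCS4D02G135000, the most abundant of all, changed little. Its libraries held 4496 to 6927 TPM with salt, with a median of 5692 TPM, and 5322 to 7339 TPM without, with a median of 6544 TPM. Its within-group SD was 0.12 on the log2 scale, and a change of -0.19 (SE 0.05) passed the test (limma adjusted p = 0.01128).

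The 6 gene models that rose with salt were TraesCS3B02G451800, TraesCS2B02G048200, TraesCS4A02G175600, TraesCS2D02G034400, TraesCSU02G049400 and TraesCS4A02G246100. TraesCS3B02G451800 held 2928, 1778, 2150 and 1658 TPM with salt plus heat plus drought, 805, 942, 2898 and 645 TPM with salt plus heat, 1105, 2425, 2794 and 636 TPM with salt plus drought, and 1955, 1855, 438 and 1379 TPM with salt. Without salt it held 1049, 1435, 618 and 1073 TPM with heat plus drought, 151, 491, 235 and 673 TPM with heat, 1123, 1960, 762 and 647 TPM with drought, and 972, 237, 198 and 673 TPM in control. The triple combination was high in all 4 libraries, while the other salt groups had high and low libraries side by side. Its mean was 1650 ± 840 TPM with salt and 768 ± 491 TPM without (SD, n = 16 each), a change of 1.21 (SE 0.29, limma adjusted p = 0.003472), higher in all 4 backgrounds and called under all 42 alternatives.

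TraesCS2B02G048200 stood at 816, 1667 and 2178 TPM (lowest, median, highest) with salt and at 634, 951 and 2510 TPM without. The highest single library was thus one without salt, drought replicate 1. It changed by 0.63 (SE 0.12, limma adjusted p = 0.000653), a rise called under all 42 alternatives. TraesCS2D02G034400, on chromosome 2D, stood at 1191, 1870 and 2356 TPM with salt and 926, 1270 and 2736 TPM without, a change of 0.45 (SE 0.09, limma adjusted p = 0.00123) that was lost under median-of-ratios scaling alone. With drought present its salt difference was -0.15 without heat and 0.745 with heat. The -0.15 is set against a drought group with a mean of 1838 TPM, in which replicate 1 held the 2736 TPM.

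The remaining rises were less firm. TraesCS4A02G175600 changed by 0.59 (SE 0.22, limma adjusted p = 0.04054) and kept its call under 21 of 42 alternatives. Its highest libraries were 5511 TPM in salt plus heat replicate 3 and 4631 TPM in salt plus heat plus drought replicate 1. TraesCSU02G049400 changed by 0.31 (SE 0.12, limma adjusted p = 0.04182), a call kept under 19 of 42, and TraesCS4A02G246100 by 0.23 (SE 0.08, limma adjusted p = 0.03221).

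**Figure D4:**
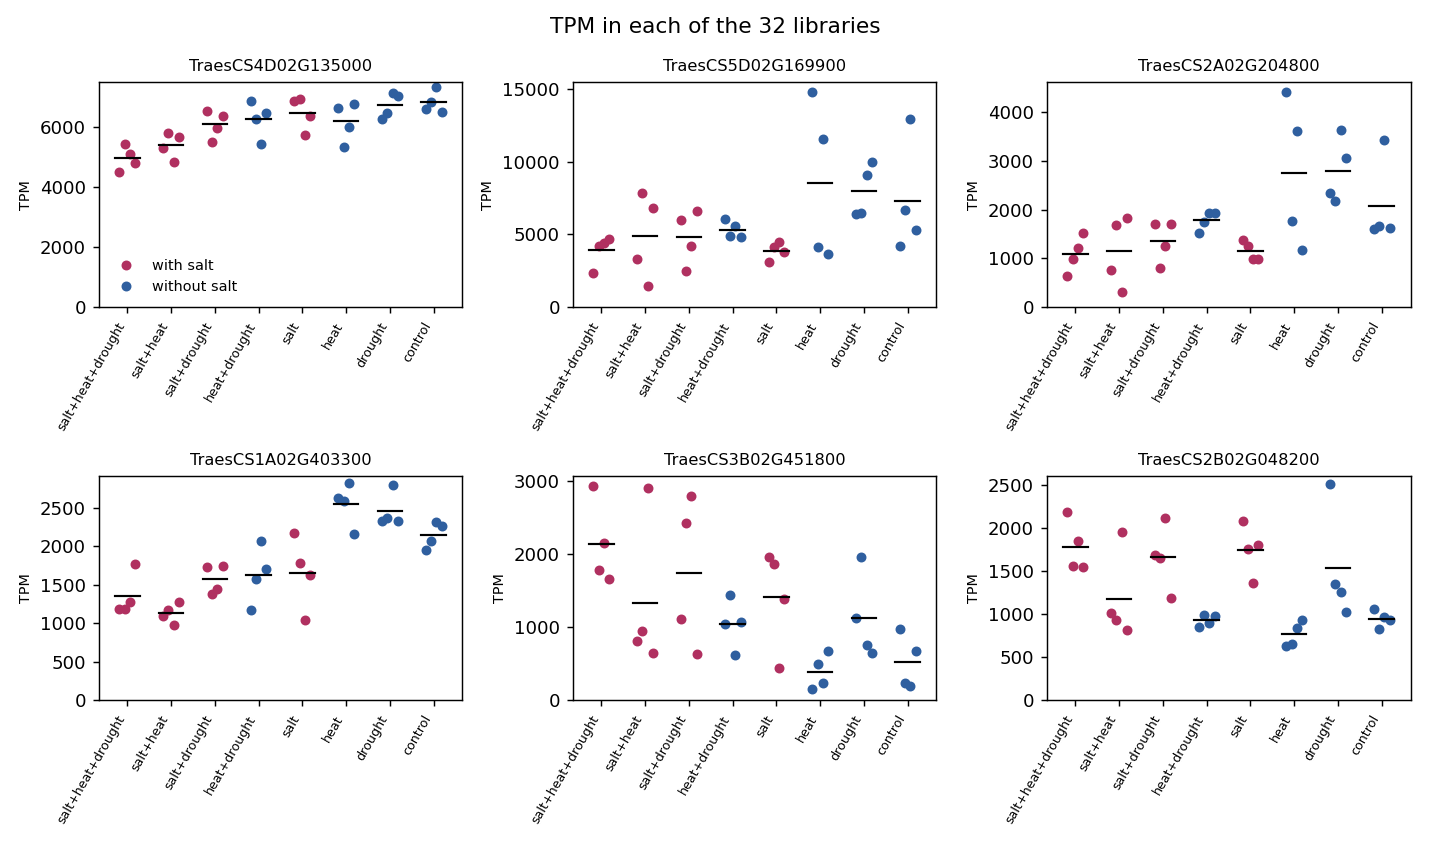
TPM of 6 gene models in each of the 32 libraries, by treatment; points are libraries, black bars are means of 4, and colours mark libraries with and without salt. TraesCS5D02G169900 and TraesCS2A02G204800 show single libraries far above the others in the heat and control groups, TraesCS1A02G403300 is lowest with salt plus heat, and TraesCS3B02G451800 is highest with the triple combination.

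Salt plus heat against control called 7 members, all lower, where 2.50% of all gene models tested fell and 7.01% rose. All 7 had 4 stressed libraries below all 4 control libraries. So had some members that were not called, such as TraesCS5D02G329200 and TraesCS5A02G322500. The share of all gene models without overlap is not given. TraesCS1A02G403300, at 1129 ± 125 TPM with salt plus heat and 2151 ± 172 TPM in control (SD, n = 4 each), changed most, by -0.93 (SE 0.18, limma adjusted p = 0.001359), and was called under all 19 alternatives. TraesCS1D02G411300 held 1055, 1296, 830 and 1447 TPM with salt plus heat, against 1725, 2189, 2293 and 2072 TPM in control, a change of -0.86 (SE 0.21, limma adjusted p = 0.009244) whose call was kept under 16 of 19 alternatives. It was lost without salt plus heat replicate 3, alone or with the libraries that stood apart, and in the model of the compared groups alone. TraesCS2D02G112000 averaged 791 TPM with salt plus heat and 1405 TPM in control, and also changed by -0.86 (limma adjusted p = 0.005909). The others were TraesCS1B02G451100 (-0.80), TraesCS1B02G432700 (-0.78), TraesCS3A02G321900 (-0.68) and TraesCS4D02G135000 (-0.34).

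That count was sensitive to single libraries. It was 18 without salt plus heat replicate 2 and 20 without replicate 4, where 2.54% and 2.65% of all gene models fell. It was 4 without replicate 1 and 3 without replicate 3, where 1.66% and 1.58% of all fell, and 4 without control replicate 3, where 2.44% fell. Without the 4 libraries that stood apart it was 4, where 3.39% of all fell, and 2 without salt plus heat replicate 3 as well, where 2.87% fell. Quantile normalisation called 5 falls and 4 rises, where 5.57% of all fell and 5.40% rose.

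The combination of all 3 stresses against control called 6 falls and 5 rises, where 3.96% of all gene models fell and 9.68% rose. In all 11 the 4 stressed libraries and the 4 control libraries did not overlap. This is read from the same values as the calls, and the share of all gene models without overlap is not given. TraesCS3B02G451800 averaged 2129 ± 573 TPM with the triple combination and 520 ± 371 TPM in control (SD, n = 4 each), a rise of 2.31 (SE 0.58, limma adjusted p = 0.00852) that was called under all 19 alternatives. TraesCS2B02G048200 held 2178, 1559, 1841 and 1544 TPM with the triple combination, against 1054, 831, 966 and 936 TPM in control. It rose by 0.90 (SE 0.24, limma adjusted p = 0.01286), a call lost without replicate 1 of the triple combination and under median-of-ratios scaling. TraesCS2D02G034400 rose by 0.80 (SE 0.18, limma adjusted p = 0.004989). TraesCS5B02G426500 (0.44) and TraesCS5A02G424400 (0.33) completed the rises. Against control the other stress groups had changes of 0.12 to 0.24 for TraesCS5B02G426500 and of -0.01 to 0.25 for TraesCS5A02G424400, and none of these passed the test.

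Among the falls, TraesCS5D02G329200 held 1780, 2821, 2994 and 3968 TPM with the triple combination, against 4236, 5091, 7448 and 4589 TPM in control, a change of -0.91 (SE 0.30, limma adjusted p = 0.04071). Its call was kept under 6 of 19 alternatives. TraesCS5A02G322500 changed by -0.82 (SE 0.28, limma adjusted p = 0.04725), a call kept under 4 of 19. TraesCS1D02G411300 (-0.80), TraesCS1B02G432700 (-0.74), TraesCS1A02G403300 (-0.68) and TraesCS4D02G135000 (-0.46) were called here as they were with salt plus heat, and both comparisons share the control libraries. Quantile normalisation gave 10 rises and 3 falls, where 8.11% of all rose and 8.80% fell, and median-of-ratios scaling 1 rise and 5 falls, where 7.81% rose and 9.67% fell. Without replicate 1 of the triple combination, 6 members were called, and the share of all gene models is not given for that fit. Of the 11 called members, 8 kept their call without the 4 libraries that stood apart, and 11 without salt plus heat replicate 3 as well.

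Heat, averaged over 4 backgrounds, called 4 members, all lower, where 2.55% of all gene models tested fell and 7.22% rose. TraesCS4D02G135000 averaged 5695 ± 739 TPM with heat and 6523 ± 504 TPM without (SD, n = 16 each), a change of -0.20 (SE 0.05, limma adjusted p = 0.01482). That change turned to 0.02 with quantile normalisation, and its call was kept under 36 of 42 alternatives. It was lost with no filter, a pseudocount of 0.1, quantile normalisation, median-of-ratios scaling, scaling to all other gene models and blocks by title number. TraesCS1B02G432700 changed by -0.31 (SE 0.09, limma adjusted p = 0.02468) and kept its call under 40 of 42 alternatives. TraesCS2B02G048200 changed by -0.37 (SE 0.12, limma adjusted p = 0.04621) and TraesCS1A02G403300 by -0.28 (SE 0.09, limma adjusted p = 0.04826). The calls of this last pair held under 15 and 14 of 42 alternatives, and neither of them, nor TraesCS1B02G432700, was lower with heat in all 4 backgrounds. With 1 library left out the count was 6 without salt plus heat replicate 4, 5 without salt replicate 3 or heat replicate 1, and 2 to 4 otherwise. No share of all gene models is given for these fits. Without the 4 libraries that stood apart 8 members fell, where 3.16% of all did, and 11 without salt plus heat replicate 3 as well, where 3.23% did. Quantile normalisation gave 7 rises and 1 fall, where 5.75% rose and 6.66% fell.

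Drought called no member. Averaged over 4 backgrounds, 90 of the 100 had a positive change with a median of 0.13, against 0.02 for all gene models tested, but 0 passed an adjusted p of 0.05 in limma and 15 had an unadjusted p under 0.05. Among all gene models 0.384% rose and 0.417% fell at that adjusted p, and their share at an unadjusted p under 0.05 is not given. Leaving out salt plus heat replicate 3 gave 3 rises, and leaving out salt plus drought replicate 4 gave 1. The share of all gene models called in these fits is not given. Against control, drought gave a median change of 0.31, against -0.16 for all gene models, and 92 members were higher. Here too limma called 0 of 100, where 1.33% of all were called in either direction. At an unadjusted p under 0.05 there were 17 members, and the share of all gene models is not given. TraesCS6A02G358100, at 3158 ± 217 TPM with drought and 2457 ± 222 TPM in control (SD, n = 4 each), was among those with the smallest p, and its 4 drought libraries lay above all controls (0.36, SE 0.12, limma adjusted p = 0.1322).

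This count turned on control replicate 3 and the other libraries that stood apart. Without control replicate 3 alone, 2 members rose, and the share of all gene models is not given for that fit. Without all 4 libraries, 17 rose and 2 fell, where 1.32% of all gene models rose and 19.9% fell, and with salt plus heat replicate 3 left out too, 42 rose and 2 fell, where 1.65% rose and 21.6% fell. The median change of the members was then 0.48, and that of all gene models -0.27. Control replicate 3 held 31.9% of its TPM in the members, and the drought libraries, all kept, held 25.02% to 31.7%. Leaving out this control raises the drought difference. The other libraries left out are in neither the drought nor the control group, so they do not change that difference. They enter these calls only through the residual variance and its degrees of freedom, which the model pools over all groups. The further rises, from 2 to 17 and 42, therefore came with no further change in the drought difference. These counts are no separate evidence of a rise.

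The remaining single and paired stresses called 0 members against control in limma. Members at an unadjusted p under 0.05 numbered 10 with salt plus drought, 4 with heat plus drought, 12 with salt and 2 with heat. Among all gene models 1.79%, 2.58%, 1.46% and 1.21% were called at an adjusted p under 0.05, in that order. Their share at an unadjusted p is not given, so these percentages cannot be set against the member counts. Median changes were -0.19 with salt plus drought, 0.03 with heat plus drought, -0.25 with salt and 0.15 with heat. Some alternatives called 1 or 2 members with salt alone and 1 with salt plus drought, where the share of all gene models is not given. None of the leave-one-out fits called any in these 4 comparisons.

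Whether pairs of stresses added up was tested as interactions, each averaged over the third stress, and limma called 0 members in all 3. No term for the 3 stresses together was fitted. For heat by drought 4 members had an unadjusted p under 0.05 and 0.359% of all gene models were called. Heat by salt had 0 such members and 0.0313% of all called, and drought by salt had 1 and 0.259%. These percentages are at an adjusted p under 0.05, so they cannot be set against the unadjusted counts. The median heat by drought term of the members was -0.19 on the log2(TPM + 1) scale, against 0.10 for all gene models.

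The gene models moved together from library to library. Pearson's r of log2(TPM + 1) over the 32 libraries is given as a description, since the libraries share treatments, TPM are relative to 1 total, and RSEM divides reads between similar copies. For 83 members the mean r with the other 99 ran from 0.35 to 0.67. For the other 17 it ran from -0.55 to 0.02 and was below 0 for 14. The lowest mean r, -0.55, was that of TraesCS4A02G175600, which was also the member least like each of the first 10. With salt, the set of 83 had 71 falls, 0 rises and 12 gene models not called, and the set of 17 had 1 fall, 6 rises and 10 not called. These sets were cut from the same values, so their salt counts are no separate evidence.

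**Figure D5:**
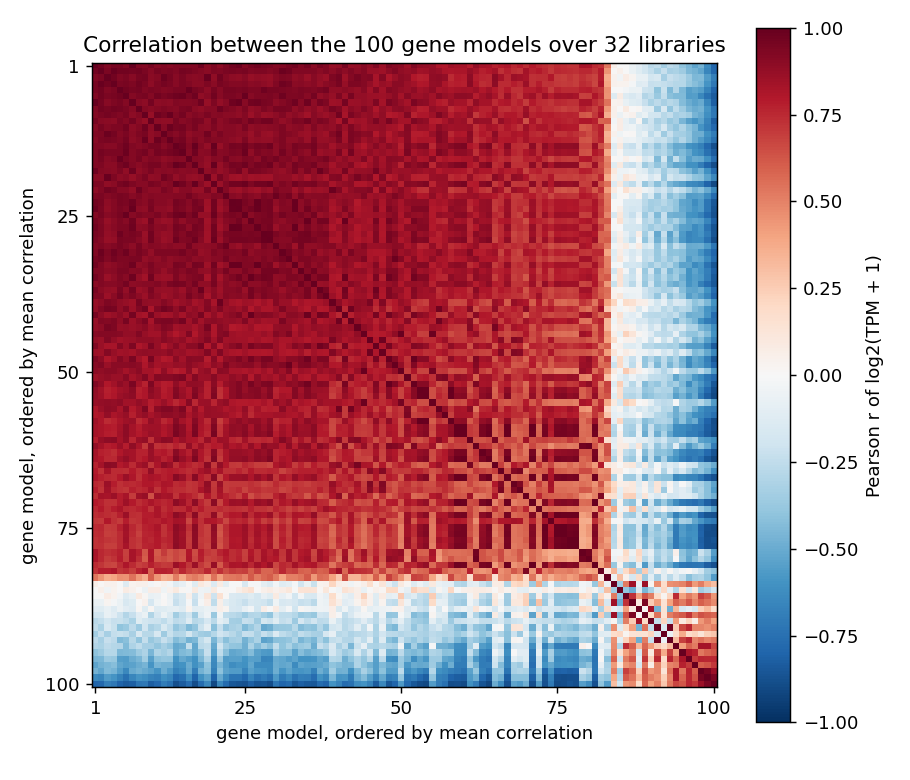
Pearson's r of log2(TPM + 1) over 32 libraries for every pair of the 100 members, ordered by mean correlation with the others. A block of 83 members is red throughout, and the last 17 are pale or blue against it.

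The 10 highest members were most like gene models on the same homoeologous group, with TraesCS4D02G135000 as the exception. Its closest member was TraesCS5A02G322500, at an r of 0.69. TraesCS5D02G169900 was closest to TraesCS5D02G169600 (0.99), TraesCS5D02G329200 to TraesCS5A02G322500 (0.99), and both TraesCS3D02G223300 and TraesCS3A02G230000 to TraesCS3B02G259300 (0.99 each). TraesCS2D02G248400 was closest to TraesCS2B02G270300 (0.98) and TraesCS2A02G187200 to TraesCS2B02G220100 (0.95).

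In 5 places, members lay close together by identifier number. On group 5 these were TraesCS5A02G165400 with TraesCS5A02G165700, TraesCS5B02G162600 with TraesCS5B02G162800, and TraesCS5D02G169600 with TraesCS5D02G169900. The high confidence gene models numbered between them were at low levels, with 0.00 and 15.6 TPM on 5A, 4.76 TPM on 5B and 13.5 TPM on 5D. The 6 members were tightly correlated (r from 0.97 to 0.99 over 32 libraries) and held 2.46% of the TPM on average. Their summed share ran from 0.725% in salt plus heat replicate 3 to 6.21% in heat replicate 1, a ratio of 8.56.

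On group 2 the neighbours were TraesCS2A02G066700 with TraesCS2A02G066800 and TraesCS2D02G065100 with TraesCS2D02G065200. Together with TraesCS2B02G079200 they held 0.887% of the TPM on average, from 0.211% in salt plus heat replicate 3 to 2.41% in heat replicate 1, a ratio of 11.4, with r from 0.97 to 0.99. Of these 5, TraesCS2A02G066800 passed the test with salt (-0.70, SE 0.23, limma adjusted p = 0.02506), while the other 4 had changes of -0.58 to -0.91 with adjusted p from 0.06309 to 0.091. The same libraries were thus lowest and highest for both neighbour sets.

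TraesCS5D02G169900 shows the pattern library by library. It held 2332, 4227, 4444 and 4703 TPM with salt plus heat plus drought, 3343, 7842, 1473 and 6841 TPM with salt plus heat, 5968, 2463, 4185 and 6605 TPM with salt plus drought, and 3098, 4124, 4498 and 3793 TPM with salt. Without salt it held 6088, 4898, 5566 and 4807 TPM with heat plus drought, 14806, 4124, 11582 and 3665 TPM with heat, 6377, 6508, 9098 and 9969 TPM with drought, and 4217, 6708, 12967 and 5324 TPM in control. The 3 highest values were heat replicate 1, control replicate 3 and heat replicate 3. The averaged change with salt was -0.73 (SE 0.22, limma adjusted p = 0.01591).

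Use of transcripts was read from the share of the leading transcript, which the ranking did not use. Of the 100 gene models 76 have 1 annotated transcript, and among the other 24 the leading one held over 95% of the TPM in 19. The widest range of group means was that of TraesCS4D02G135000, which has 9 annotated transcripts. Its leading transcript held 63.7%, 61.5%, 60.9% and 68.5% with salt plus heat plus drought, against 51.7%, 47.3%, 49.2% and 54.9% in control. The triple combination averaged 63.6% ± 3.43 and control 50.8% ± 3.29 (SD, n = 4 each), the lowest group was drought with 48.7% ± 6.49 (SD, n = 4), and no test was made. So the gene model's summed level was lowest in the group where its leading transcript held the largest share. The next widest were TraesCS5B02G018700, from 41.1% with drought to 49.1% in control, and TraesCS2A02G247300, from 43.6% with the triple combination to 51.04% with heat. The leading transcript is the one of highest mean over all libraries, and in TraesCS5B02G018700 it was not first everywhere. In drought it held 37.1%, 41.3%, 40.1% and 46.0%, where the second transcript held 51.3%, 50.2%, 49.7% and 43.9%. In heat replicates 1, 2 and 4 it held 43.4%, 43.1% and 44.1%, where the second held 49.2%, 50.2% and 45.7%, but not in heat replicate 3. Replicates 1 and 4 of the triple combination also had more of the second. In control it held more than the second in all 4 libraries, though in replicate 1 only 45.5% against 45.2%. RSEM estimates the split between transcripts of a gene model, and the depth behind these shares is unknown.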

How the data were processed

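Flag leaf RNA of 32 libraries was measured as TPM. The authors filtered their reads, used STAR to align them and RSEM 1.3.3 to estimate the deposited TPM, both against IWGSC 1.1, per the series' design text. The submitters' processing notes also name CASAVA and Trimmomatic, without a version. TPM keep no read counts, so depth is unknown and no count model or counting interval was used. Column names tied each column to 1 sample, with 0 columns unmatched. Groups and replicate numbers come from the source names.

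TPM of 298774 transcripts were summed to 269428 gene models, of which 107892 are of high confidence. Identifiers matched 0 of 155467 genes of a reference table on a later assembly, so no names, functions or sequences are given. Subgenome and chromosome were read from the identifiers.

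The 60684 gene models that reached 1 TPM in 4 or more libraries were fitted on log2(TPM + 1), which understates changes of low values, with limma 3.58.1 in R 4.3.3, in 1 model of 8 group means with 24 residual degrees of freedom and an eBayes trend. The tests were two-sided, with Benjamini-Hochberg adjustment over all gene models in each of 13 comparisons and a threshold of 0.05. These were 7 stress groups against control, 3 stresses averaged over 4 backgrounds and 3 interactions. Tables and plots used Python 3.11.15 with pandas 2.3.3, numpy 2.4.6 and matplotlib 3.10.9.

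Members, lists and tests were chosen with earlier results of these data known. Gene models named are the 10 highest, those at the end of the list, the largest called changes (5 each way for averaged effects, 2 each way against control), the extremes in spread and transcript use, runs of identifiers at most 1000 apart, and the members most like the 10 highest; other called members are named where a count was small. Alternatives were pseudocounts, filters, scalings, blocks, models of the compared groups alone and libraries left out.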

Additional observations from a re-analysis of the deposited data

Results flagged for a closer look

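In groups of 4 libraries, a library was picked out where its gap to the nearest other was large against the range of the group. Of 216 such checks on 23 named gene models and the summed shares, 11 were met, and chance alone gives about 1 in 20.

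Control replicate 3 accounts for 7 of them. It was high for TraesCS2D02G248400, with 4374.94 TPM where the other controls held 3254.91 to 3360.15 TPM, and for TraesCS2A02G204800, with 3436.41 TPM where they held 1604.65 to 1672.04 TPM. It was low for TraesCSU02G049400, with 644.72 TPM where the others held 1001.14 to 1020.93 TPM. The members held 31.909% of its TPM, where the other controls had 20.196% to 21.695%. By subgenome the A members held 10.862% (others 6.818% to 7.327%), the B members 8.278% (others 5.301% to 5.595%) and the D members 12.474% (others 7.648% to 8.415%).

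TraesCS1A02G403300 was high in replicate 4 of the triple combination, with 1764.74 TPM against 1187.99 to 1281.49 TPM in the others, and in drought replicate 3, with 2796.12 TPM against 2322.88 to 2373.46 TPM. TraesCS3B02G451800 was high in salt plus heat replicate 3, with 2897.98 TPM against 645.43 to 942.4 TPM. TraesCSU02G049400 was high in drought replicate 1, with 1498.66 TPM against 1051.7 to 1113.96 TPM. No cause was tested.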

How the results depend on the processing

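Depth is unknown, so precision rests on the spread of 4 libraries per group. The counts below add rises to falls, and no share of all gene models is set beside them. That share changed with the setting too. For averaged salt 3.95% of all gene models fell and 29.0% rose, but 9.52% and 10.2% with quantile normalisation. Members called, of 100, were 78 for averaged salt, 42 with no filter, 28 with quantile normalisation, 25 without the libraries that stood apart, 24 without salt plus heat replicate 3 as well, and 65 to 86 with 1 library left out. For averaged heat (4) they were 1 with a pseudocount of 0.1, 0 with no filter, 8 with quantile normalisation, 2 when scaled to all other gene models, 8 and 11 in the 2 omissions of doubted libraries, and 2 to 6 with 1 left out; TraesCS4D02G135000 turned from -0.20 to 0.0193 under quantile normalisation. For averaged drought (0) they were 1 under median-of-ratios scaling, 2 and 3 in the 2 omissions, and 0 to 3 with 1 left out. For drought against control (0) the omissions gave 19 and 44, and leaving out 1 library 0 to 2. Salt plus heat (7) gave 3 with no filter, 1 in the model of the compared groups alone, 4 and 2 in the omissions, and 3 to 20 with 1 left out. The triple combination (11) gave 4 with no filter, 6 under median-of-ratios scaling, 7 with the compared groups alone, and 6 to 10 with 1 left out. Salt alone (0) gave 2 with a 5 TPM filter, 2 under median-of-ratios scaling and 2 in the second omission. Salt plus drought (0) gave 1 under quantile normalisation, 1 under median-of-ratios scaling and 1 in each omission. Heat by drought (0) gave 2 under quantile normalisation, and drought by salt (0) 2 in the second omission.

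Replicate numbers gave no sign of pairing the samples. The mean r of deviations was 0.0068 for same-numbered pairs and -0.00231 for others, and 0.00477 and -0.000723 by the numbers in titles. Of the same-numbered pairs, 27 of 112, and 14 of 56 by titles, had r over 0.1, with no such count for the others. With a replicate block averaged salt had 73 called, averaged heat 3, and salt alone 1, and with a block by title number 74, 2 and 1, with 7 for the triple combination. The causes of these changes were not tested, and these counts too are given without the share of all gene models.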

Other observations

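The choice of the list depended little on how it was ranked. Ranking by the median over libraries kept 98 of the 100 members, ranking by the control mean alone kept 94, and ranking low confidence gene models too kept 93, with 7 low confidence gene models among the first 100. Of the 5 gene models left out by the rule, 2 would have been in the first 100.

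TraesCS2B02G048200 and TraesCS2D02G034400, both higher with salt on average, had their highest value of all libraries in drought replicate 1 (2510 and 2736 TPM), where the other drought libraries held 1020 to 1352 TPM and 1308 to 1700 TPM. This was noticed after their values were seen.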
